A study of Bos taurus with 8 samples.

Results

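The let-7 family is a group of microRNAs (miRNAs) that share a seed, the stretch near the 5′ end that pairs with target mRNAs, and differ by a few bases elsewhere. Its members are among the most widely expressed animal miRNAs, are held down in early embryos by the protein LIN28, and accumulate as cells differentiate. They repress mRNAs of growth regulators such as RAS and HMGA2, and they circulate in plasma inside exosomes, the small membrane vesicles that cells release. The members were the 8 guide-strand entries of the bovine array named bta-let-7a-5p, bta-let-7b, bta-let-7c, bta-let-7d, bta-let-7e, bta-let-7f, bta-let-7g and bta-let-7i, chosen by name out of 744 miRNAs on the array. All 8 were detected on all 8 arrays.

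The study followed Japanese Shorthorn steers that were either grazing on pasture or housed in a free-stall barn. Plasma was taken at 0, 1, 2 and 4 mo, exosomes were pelleted by ultracentrifugation, and their RNA was hybridised to 1-colour Agilent miRNA arrays. Each array held the mixed RNA of 3 steers, and each combination of label and month had 1 array, which gives groups named housed and grazing at 0, 1, 2 and 4 mo. The 0 mo arrays precede the difference in feeding. The arrays of 1 label are drawn from the same group of steers over the months, so they are not independent animals, and no pool was measured on a second array. Errors of single arrays are therefore the scanner software's own error estimates. The tests measure only the spread over months among pools of the same steers. The spread between independent groups of steers is not in their errors or p-values.

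Arrays are named here by their GEO labels, and a conflict over these labels bears on every direction between them. The headings under which the same signals are listed elsewhere in the study do not fall in with them. On each array labelled housed, 8 of 8 let-7 signals matched within 1% a column lettered for grazing, and on each array labelled grazing 8 of 8 matched a column with the letter A, which the study does not explain. If the columns lettered for grazing are the grazing animals, each difference between labels below keeps its size and turns its sign. The study's account of its housed animals at 0 mo also describes the array labelled grazing at that month. There bta-miR-126-3p made up 2.44% and bta-miR-451 1.41% of the detected signal, beside 3.86% and 1.52% on the array labelled housed. The directions of bta-miR-451 and bta-miR-150 between the labels, given with the blood cell markers, are the reverse of those the study gives for its feeding groups. So are those of bta-miR-221 (0.28), bta-miR-223 (0.26), bta-miR-320a (0.22), bta-miR-361 (0.13) and bta-miR-19b (0.03) over all months, none called by limma. Those of bta-miR-148a (-0.05) and bta-miR-486 (-0.23), also not called, are not reversed. At 1 mo, however, the scaled level of bta-miR-486, defined below, was higher labelled grazing (1.61) than labelled housed (1.45). The study measured these miRNAs by PCR relative to let-7g and compared its groups at single months. The arrays alone do not settle which labels are right. The label also cannot be told apart from the place on the slide, since all arrays labelled housed lay in slide column 1 and all labelled grazing in slide column 2. Nor can the month be told apart from the slide row, since the arrays of each month lay in a row of their own.

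The arrays differed in brightness. Over the months in order, the detected miRNAs of the arrays labelled housed summed to 157696, 84288, 62438 and 90951 scanner intensity units, and 57316, 45507, 63558 and 51625 units were found for those labelled grazing. Only at 2 mo were the pools of the labels about equally bright. Levels were therefore compared as a signal over the 90th percentile of all miRNAs on the same array, on the log2 scale (the scaled level).

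All members gave clear signals, and let-7a-5p and let-7f led. The intensity of let-7a-5p was 1641, 1634, 836 and 1604 at 0, 1, 2 and 4 mo on the arrays labelled housed, and 436, 422, 635 and 411 on those labelled grazing. For let-7f the values were 1584, 1582, 778 and 1543 labelled housed, and 409, 428, 644 and 366 labelled grazing. All values labelled grazing were the lower for both members, but without scaling the fitted level was lower labelled grazing for 97.2% of the 143 miRNAs that every array detected, so nothing particular to the members is read from this. Over the 8 arrays let-7a-5p ranked between 9 and 18 among detected miRNAs, and let-7e, the dimmest member, between 59 and 75. The scanner error estimate was between 7.17% and 9.19% of the signal for every member on every array.

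Shares of the summed let-7 signal do not depend on array scaling, although a signal also depends on the probe, so that they are shares of signal and not of molecules. Over the 8 arrays let-7a-5p held a median of 26.7% (25.7 to 29.2%) and let-7f 26.1% (23.3 to 28.3%). Next came let-7b with 15.5% (13.7 to 18.4%), let-7g with 10.9% (9.56 to 11.9%) and let-7i with 7.77% (6.34 to 8.56%). The lowest shares were those of let-7d with 4.95% (4.30 to 6.13%), let-7c with 4.80% (4.36 to 5.54%) and let-7e with 2.67% (2.13 to 3.05%). Neighbours in this order were separated by more than their combined error on 8 of 8 arrays, except at 2 places. let-7a-5p and let-7f differed by more than their error on 1 of 8 arrays, and let-7d and let-7c on 3 of 8. Together let-7a-5p and let-7f held a median of 52.4% of the let-7 signal with both probes of each member, 54.8% with the longest probe of each member alone and 47.8% with the shortest alone.

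The family as a whole made up a small and varying part of the detected signal. The summed let-7 signal was 3.64%, 6.64%, 4.90% and 6.03% of the detected signal at 0, 1, 2 and 4 mo on the arrays labelled housed, and 2.96%, 3.60%, 3.87% and 3.05% on those labelled grazing. At each month the share was higher on the array labelled housed. Within each label the 0 mo array had the lowest share.

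The first comparison asked whether let-7 levels after the start differed from 0 mo in both pools. No member passed the test. With limma on the 143 miRNAs detected on all 8 arrays, label as a block and Benjamini-Hochberg adjusted p under 0.05, 0 of 8 members were called, against 10 of 143 miRNAs (6.99%) overall. At an unadjusted p under 0.05 there were 1 of 8 members and 34 of 143 miRNAs. The fitted differences of later months from 0 mo were between 0.13 and 0.42 on the log2 scale, with a median of 0.23 for the members and 0.09 for all 143. Leaving out the scaling moves all 8 members by the same -0.34, to a median of -0.12 beside -0.25 for all 143, so a sign here is relative to the scale of the arrays. With normexp background correction, a model of signal and background after which an offset of 50 is added to each spot, let-7g lay below 0; with normexp and no offset it did not.

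The largest of these differences was that of let-7d, a member encoded beside let-7a-5p and let-7f. Its scaled level was 1.18, 1.74, 1.67 and 1.60 at 0, 1, 2 and 4 mo labelled housed, and 1.04, 1.68, 1.39 and 1.13 labelled grazing. All 6 later arrays lay above the 0 mo array of their label, by 0.56 ± 0.16 (scanner error) at 1 mo labelled housed and by 0.64 ± 0.16 at 1 mo labelled grazing. At 4 mo labelled grazing the difference of 0.08 ± 0.16 was within the error. The fitted difference for let-7d was 0.42 (SE 0.17, limma adjusted p = 0.165). It was positive without scaling too, at 0.08.

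The second comparison asked whether arrays labelled grazing differed from those labelled housed with month matched. let-7a-5p, let-7e and let-7f were lower on the arrays labelled grazing, by the test, and the other 5 members were not called. The scaled level of let-7a-5p was 3.91, 4.30, 4.04 and 4.28 at 0, 1, 2 and 4 mo labelled housed, and 3.42, 3.76, 3.50 and 3.58 labelled grazing. For let-7e it was 0.62, 1.04, 0.75 and 0.91 labelled housed, and 0.05, 0.16, 0.00 and 0.23 labelled grazing. For let-7f it was 3.86, 4.25, 3.94 and 4.23 labelled housed, and 3.33, 3.78, 3.52 and 3.42 labelled grazing. The labels did not overlap for these 3 members, nor for let-7g. Such a lower, non-overlapping pattern held for 4 of 8 members and for 16.1% of the 143 miRNAs.

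By limma with month as a block, the difference of labelled grazing from labelled housed was -0.57 (SE 0.12, adjusted p = 0.0279) for let-7a-5p, lower at 4 of 4 months. It was -0.72 (SE 0.12, adjusted p = 0.0279) for let-7e and -0.56 (SE 0.13, adjusted p = 0.0279) for let-7f, each also lower at 4 of 4 months. Lower calls covered 3 of 8 members and 21 of 143 miRNAs (14.7%). The members not called had differences of -0.22 (let-7b), -0.28 (let-7c), -0.24 (let-7d), -0.30 (let-7g) and -0.16 (let-7i), with SEs between 0.12 and 0.14. The median over the members was -0.29, against -0.08 over all 143. All 8 differences were below 0 under each scaling alternative.

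The number of members called moved with the setting. Without scaling, which moved the median of all 143 miRNAs to -1.07, 8 of 8 members were called, with 92 of 143 miRNAs overall (91 lower). With normexp correction and its offset 8 of 8 members were called too, with 42 of 143 overall (29 lower). With normexp and no offset 6 of 8 were called, with 45 of 143 overall (28 lower), and with the offset added to mean spot signals without normexp 8 of 8, with 45 of 143 overall (31 lower). Without the arrays of 1 mo, and without those of 4 mo, 0 of 8 members and 0 of 143 miRNAs were called. At an unadjusted p under 0.05 there were 3 members each time, with 41 of 143 miRNAs without 1 mo and 40 of 143 without 4 mo. The differences themselves were of like size: without 1 mo and without 4 mo they were -0.58 and -0.53 for let-7a-5p, -0.66 and -0.73 for let-7e, and -0.59 and -0.48 for let-7f. In these fits, without 1 mo and without 4 mo, the limma adjusted p of let-7a-5p was 0.110 and 0.141, within a range of 0.00304 to 0.169 over all settings. That of let-7e was 0.110 and 0.129, within 0.00304 to 0.214, and that of let-7f 0.110 and 0.153, within 0.00304 to 0.356. With no filter on dim miRNAs 0 of 8 members and 1 of 744 miRNAs were called, and with quantile normalization let-7f was not called (limma adjusted p = 0.0927).

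let-7a-5p, let-7e and let-7f were lower on the array labelled grazing at the start too, where each label has 1 array. The scanner error leaves out the spread between pools, so no difference between groups is called from it. At 0 mo, before the feeding differed, the array labelled grazing minus the array labelled housed was -0.49 ± 0.15 (scanner error) for let-7a-5p, -0.57 ± 0.16 for let-7e and -0.53 ± 0.16 for let-7f. At the same month it was -0.07 ± 0.15 for let-7b, -0.06 ± 0.17 for let-7c, -0.14 ± 0.16 for let-7d and -0.07 ± 0.15 for let-7i, each within the error, and -0.22 ± 0.15 for let-7g, beyond it. With the 0 mo arrays left out, 1 of 8 members and 16 of 143 miRNAs (7 lower) were called. The member was let-7e (-0.77, limma adjusted p = 0.0185), while let-7a-5p (-0.59, limma adjusted p = 0.0548) and let-7f (-0.57, limma adjusted p = 0.0562) kept the size of their differences without the call.

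The third comparison asked whether the change from 0 mo differed between the labels. No member passed. By limma 0 of 8 members and 2 of 143 miRNAs (1.4%) were called, and at an unadjusted p under 0.05 there were 0 of 8 members and 9 of 143 miRNAs. The differences in change, labelled grazing minus labelled housed, were between -0.30 for let-7c and -0.04 for let-7f, with SEs of 0.39 to 0.40. Their median was -0.13, against 0.15 over all 143. Leaving out the scaling moves all 8 by the same 0.58, to a median of 0.45 beside 0.72 for all 143, so these signs too are relative to the scale of the arrays. Each was smaller than its SE, and the fit had few arrays to estimate the spread from.

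**Figure D1:**
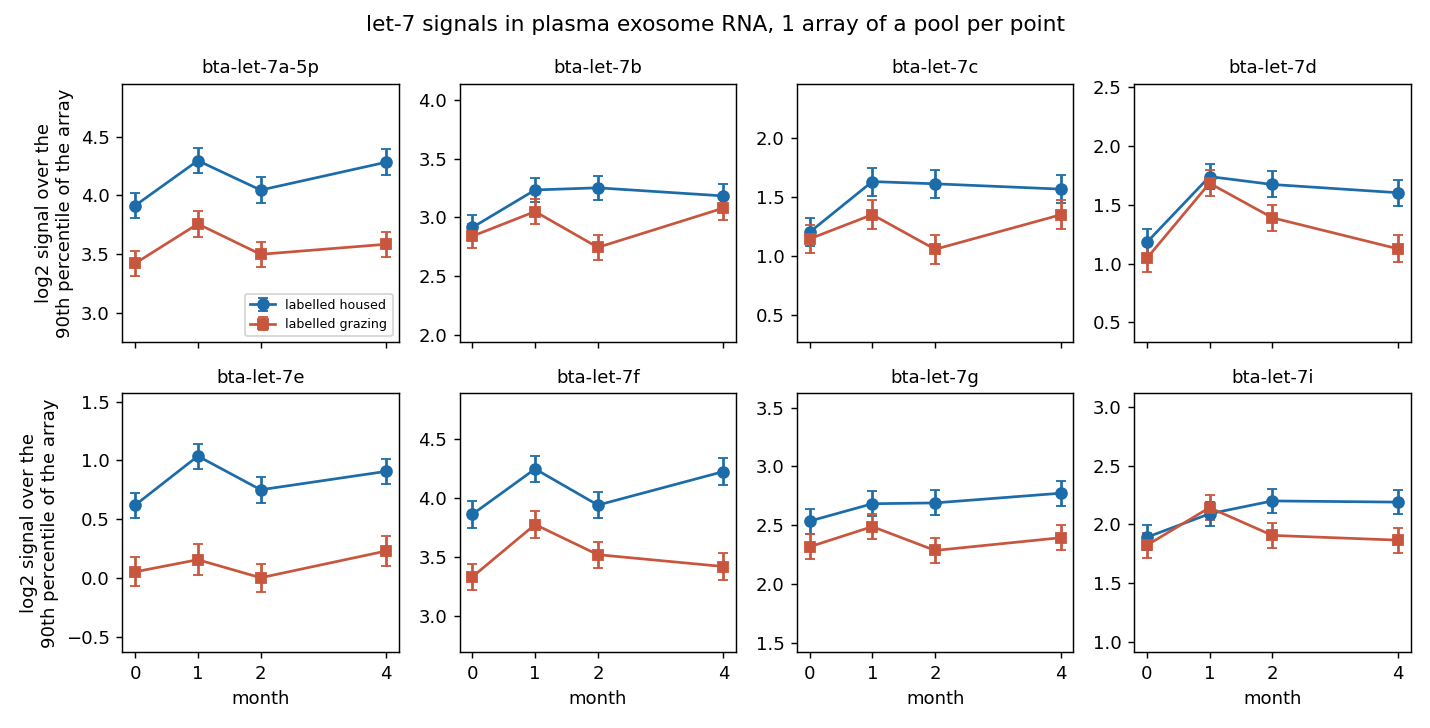
Scaled level (log2 of signal over the 90th percentile of the array) of each let-7 member against month, with circles for arrays labelled housed, squares for arrays labelled grazing and bars for the scanner error estimate. Each panel spans the same range; let-7a-5p, let-7e and let-7f are apart between the labels at every month, 0 mo included, while let-7i at 1 mo is not lower on the array labelled grazing.

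Ratios of members within an array need no scaling, and they showed that the members did not move by equal amounts. The ratio of let-7a-5p to let-7b was 2.00, 2.09, 1.73 and 2.14 at 0, 1, 2 and 4 mo labelled housed, and 1.50, 1.63, 1.69 and 1.42 labelled grazing. The labels did not overlap, but at 2 mo, where the arrays were about equally bright, the values of 1.73 and 1.69 were close. The ratio of let-7b to let-7e was 4.91, 4.58, 5.66 and 4.84 labelled housed, and 6.90, 7.43, 6.69 and 7.21 labelled grazing, again without overlap and with the nearest values at 2 mo. That gap closed only with normexp and its offset together, where the same ratio was 3.91 to 4.19 labelled housed and 4.03 to 4.38 labelled grazing, which overlap. With normexp and no offset it was 4.36 to 5.13 and 5.66 to 5.97, and with the offset and no normexp 4.08 to 4.50 and 4.51 to 4.81, neither with overlap. The ratio of let-7a-5p to let-7b, at 1.68 to 2.04 and 1.43 to 1.62 with normexp and its offset, did not overlap in any of these settings. The ratio of let-7b to let-7c, in contrast, stayed between 3.04 and 3.32 on all 8 arrays. The ratio did not overlap between the labels for 8 of 28 let-7 pairs, beside 18.1% of the 10153 pairs of all 143 miRNAs. The part of array brightness in these ratios was not tested.

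**Figure D2:**
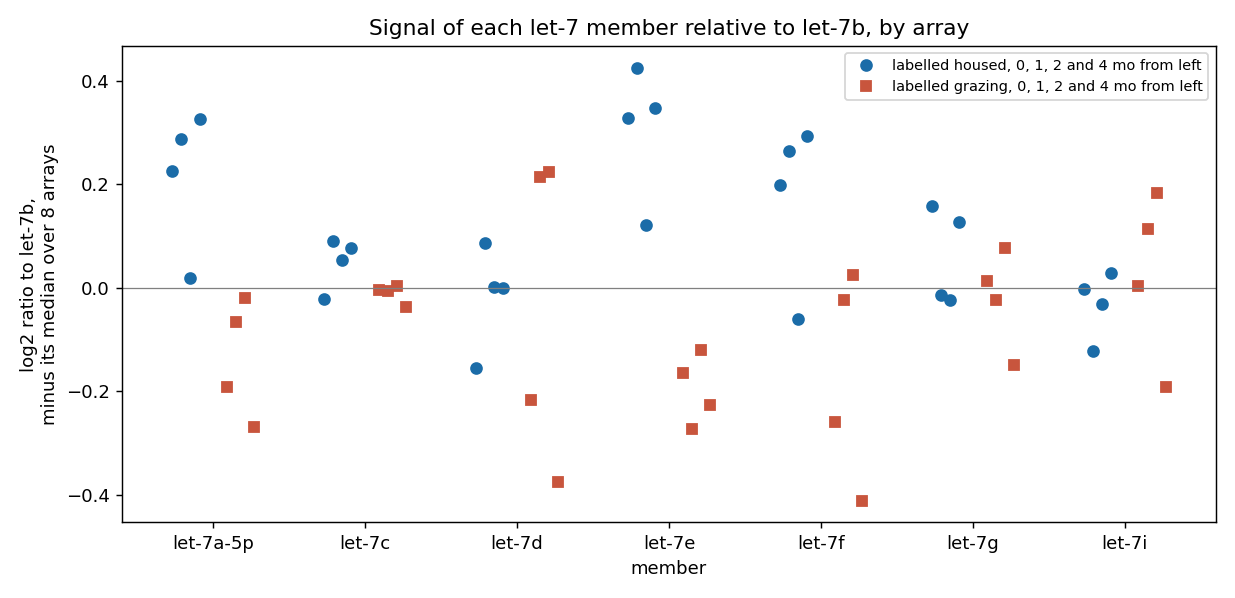
Log2 ratio of the signal of each member to that of let-7b on the same array, minus its median over 8 arrays, with circles for labelled housed and squares for labelled grazing in order of month. The labels do not overlap for let-7a-5p and let-7e (for let-7e they do with normexp correction and its offset), and let-7c stays close to 0 on every array.

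The agreement of the courses was measured as the SD over the 8 arrays of the log2 ratio of 2 miRNAs, which is 0 for courses in exact proportion. Over the 28 let-7 pairs it ran from 0.05 to 0.34 with a median of 0.20, and over all 10153 pairs from 0.04 to 1.81 with a median of 0.48. The closest pair was let-7b with let-7c (0.05), followed by let-7a-5p with let-7f (0.06). The widest was let-7d with let-7e (0.34). The scanner error of a let-7 ratio had a median of 0.16, and 19 of 28 pairs spread by more than their own scanner error. The ratios also hold the spread between pools and months, which this error leaves out. No such count was made over all 10153 pairs, so nothing particular to the members is read from it. The error from repeated spots had a median of 0.02, and 28 of 28 pairs spread by more than their own; spots of 1 array share its hybridisation, so this error leaves that step out.

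The pairs fell into an uneven pattern. let-7b, let-7c, let-7g and let-7i kept close to one another, with SDs between 0.05 and 0.13. let-7a-5p and let-7f formed a second close pair. let-7e was near let-7a-5p (0.12) and far from let-7b (0.28) and let-7i (0.33). That place of let-7e, a dim member, turned where an offset was added: its SD was 0.19 against let-7a-5p and 0.05 against let-7b with normexp and its offset, and 0.15 and 0.07 with the offset alone. It did not turn with normexp and no offset (0.08 and 0.18) or with mean spot signals (0.13 and 0.28). The SD of let-7b with let-7c was 0.08 and that of let-7a-5p with let-7f 0.10 with normexp and its offset.

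**Figure D3:**
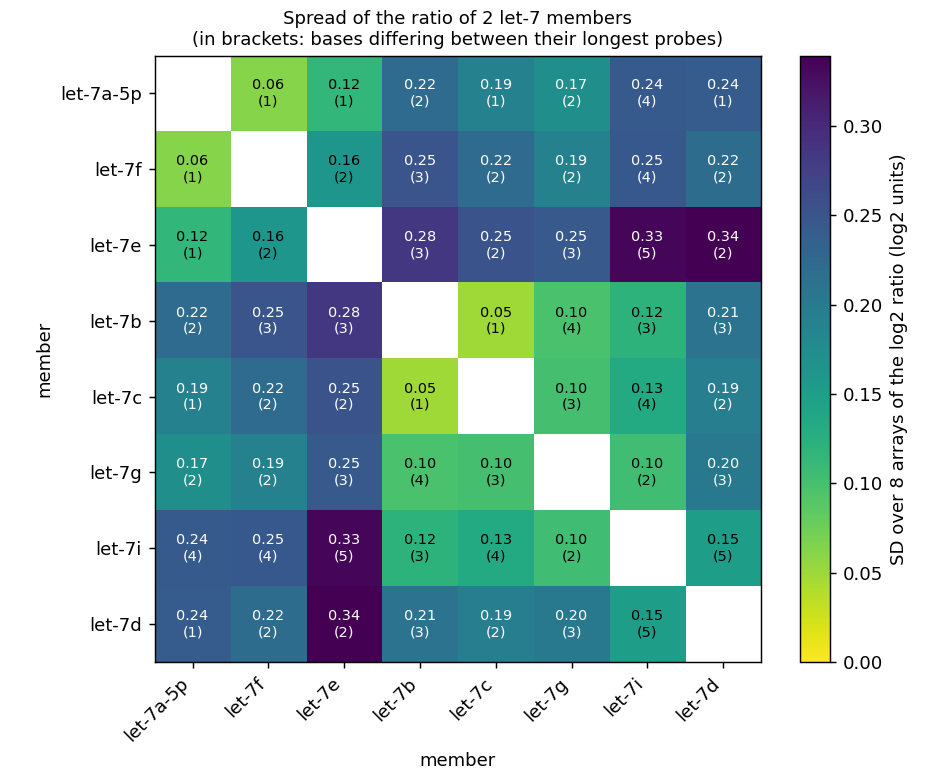
SD over 8 arrays of the log2 ratio of each pair of let-7 members (log2 units, colour and number), with the number of bases that differ between their longest probes in brackets. The lowest values are those of let-7b with let-7c and of let-7a-5p with let-7f (with normexp correction and its offset, that of let-7b with let-7e); let-7a-5p with let-7d also differs by 1 base but has a value of 0.24.

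The probes of the members are nearly the same. Each member had 2 probes that differ in length by 1 base, with 20 spots each. The longest probe of each member is shown 5′ to 3′, with capitals for the bases that differ from the let-7a-5p probe, since these bases, beside differences of length and ends, separate one member from another on the array:
let-7a-5p: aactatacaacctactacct
let-7c: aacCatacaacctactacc
let-7b: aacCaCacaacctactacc
let-7d: aactatGcaacctactacc
let-7e: actatacaacctCctacct
let-7f: aactatacaaTctactacctc
let-7g: aactGtacaaActactacctc
let-7i: aacAGCacaaActactacctc

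Positions count from 1 at the 5′ end of the let-7a-5p probe, and the let-7a-5p base comes first. The probes of let-7c (T4C), let-7d (A7G), let-7e (A14C) and let-7f (C11T) each differ from it by 1 base. The let-7b probe differs by 2 (T4C, T6C), the let-7g probe by 2 (A5G, C11A) and the let-7i probe by 4 (T4A, A5G, T6C, C11A). The probe of let-7b in turn differs from that of let-7c by 1 base. Any RNA of let-7a-5p bound by the probes of another member is part of that member's signal, which therefore sets an upper bound on it. The signal of let-7e was 8.24 to 10.5% of that of let-7a-5p on the same array, that of let-7c 15.2 to 21.2% and that of let-7d 15.0 to 23.7%. For let-7f, at 89.1 to 101%, the bound is of no use. How much of any member's signal came from another member was not tested.

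Likeness of probes and likeness of courses were compared over few pairs. The 5 pairs whose probes differ by 1 base had a median SD of 0.12, and the 23 pairs that differ by 2 or more had 0.21. With mean spot signals these were 0.13 and 0.20, with normexp and no offset 0.10 and 0.18, and with the offset alone 0.15 and 0.16. With normexp and its offset together the order turned, to 0.19 for the 5 pairs and 0.16 for the 23. Both of the closest pairs, let-7b with let-7c and let-7a-5p with let-7f, are 1 base apart, but with normexp and its offset the closest pair was let-7b with let-7e (0.05), which are 3 bases apart. Yet let-7a-5p with let-7c (0.19) and with let-7d (0.24) are also 1 base apart and had wider ratios, while let-7b with let-7g, 4 bases apart, had 0.10.

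The probes of 1 member gave unequal brightness but alike differences between the labels. The longest probe was brighter than the shortest on every array, by a ratio of 3.76 to 4.16 for let-7c, 2.58 to 3.04 for let-7f, 2.07 to 2.54 for let-7d and 1.91 to 2.06 for let-7a-5p. For let-7i it was brighter by a ratio of only 1.29 to 1.37. The mean difference of labelled grazing from labelled housed over the 4 months was -0.56 with the longest and -0.58 with the shortest probe of let-7a-5p. It was -0.72 and -0.71 for let-7e, and -0.57 and -0.51 for let-7f. The gap between the probes of a member was at most 0.11, for let-7d.

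Several members are encoded side by side, as the array design maps their probes on the UMD_3.1 build. The design lists 6 places for the let-7a-5p probe, on chr5, chr8 and chr15. On these chromosomes RefSeq (ARS-UCD2.0, used for gene names and order only) has MIRLET7A-3, MIRLET7A-1 and MIRLET7A-2, in that order. Whether the 6 listed places are all separate loci was not tested. One of these places, chr5:117119390-117119409, lies near the let-7b place at chr5:117120194-117120211. Another, chr8:86884879-86884898, lies near let-7f at chr8:86885232-86885252 and let-7d at chr8:86887442-86887459. In RefSeq MIRLET7A-1, MIRLET7F-1 and MIRLET7D follow one another. Of these neighbours, let-7a-5p with let-7f had an SD of 0.06, but let-7a-5p with let-7d had 0.24 and let-7a-5p with let-7b 0.22, so neighbours on the chromosome did not all keep to 1 ratio. Because let-7a-5p and let-7f have several places each, their signals cannot be divided among genes.

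The closest relative outside the 8 is bta-miR-98, which has the let-7 seed and whose place at chrX:96382651-96382670 lies near the second let-7f place at chrX:96383540-96383560. It was detected on all 8 arrays, with signals of 8.56 to 50.5, between 2.08% and 3.09% of those of let-7a-5p. Its difference between the labels was -0.58 (SE 0.14, limma adjusted p = 0.0279), lower labelled grazing at 4 of 4 months. Its scaled levels overlapped between the labels, and the size of the difference is uncertain. On each array labelled grazing at most 1 of 20 spots of its shorter probe was well above background, and the scanner error reached 23.6%. Its ratio to let-7f had an SD of 0.19, but 0.53 with normexp and its offset, 0.48 with the offset alone and 0.28 with normexp and no offset. The passenger strand bta-let-7a-3p was detected on 0 of 8 arrays, with signals of 0.38 to 1.74.

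Other let-7 genes have neighbours from the miR-99, miR-100 and miR-125 families, of which 3 of 5 were detected on all 8 arrays. In RefSeq MIRLET7C lies between MIR125B-2 and MIR99A, MIRLET7A-2 between MIR125B-1 and MIR100, and MIRLET7E between MIR99B and MIR125A. The ratio of let-7c to bta-miR-99a-5p had an SD of 0.09 and that of let-7a-5p to bta-miR-100 0.11. The ratio to bta-miR-125b had 0.15 for let-7c and 0.18 for let-7a-5p. bta-miR-99b was detected on 4 arrays, all labelled housed, and bta-miR-125a on 2, so that the neighbours of let-7e could not be followed. By limma, bta-miR-100 was lower labelled grazing (-0.48, SE 0.14, adjusted p = 0.0415, 4 of 4 months), while bta-miR-99a-5p had -0.21 and bta-miR-125b -0.36, neither called.

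Among the 135 other miRNAs detected on all 8 arrays, the 5 whose courses were most like the mean of the family were bta-miR-100 (SD of the log2 ratio over 8 arrays 0.09), bta-miR-106b (0.09), bta-miR-497 (0.10), bta-miR-99a-5p (0.12) and bta-miR-15b (0.13). The median over the 135 was 0.36. The 8 members, which make up that mean, had SDs of 0.08 to 0.20 against it.

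Of the 10 miRNAs on the red cell, platelet and lymphocyte lists, 4 were called lower on the arrays labelled grazing, where 14.7% of all 143 miRNAs were. All 4 red cell markers were detected on every array, led by bta-miR-451, and their summed scaled signal was 29.5, 37.9, 42.5 and 51.3 at 0, 1, 2 and 4 mo labelled housed, and 26.1, 29.7, 18.3 and 25.8 labelled grazing. Lower labelled grazing by limma were bta-miR-451 (-0.73, SE 0.22, adjusted p = 0.0482), bta-miR-144 (-1.11, SE 0.25, adjusted p = 0.0279) and bta-miR-16b (-0.54, SE 0.14, adjusted p = 0.0331), while bta-miR-486 was not called. All 3 miRNAs of the platelet list, of which miR-126 is also known from endothelial cells and miR-223 from granulocytes, were detected on every array, with sums of 73.8, 82.3, 70.9 and 78.1 labelled housed and 49.3, 72.8, 66.0 and 59.3 labelled grazing. Their brightest member was bta-miR-126-3p, except at 2 mo labelled grazing, where it was bta-miR-223, and by limma bta-miR-126-3p was lower labelled grazing (-0.61, SE 0.12, adjusted p = 0.0279). The others of that list were not called, bta-miR-223 with 0.26 (limma adjusted p = 0.377) and bta-miR-21-5p with -0.25 (limma adjusted p = 0.314). These calls too were lost without the arrays of 1 mo or of 4 mo. The part of blood cell RNA in the let-7 differences was not tested.

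The remaining marker lists were dim. All 3 lymphocyte markers were detected on every array, with sums of 2.35, 1.57, 1.47 and 1.61 labelled housed and 2.02, 2.27, 1.82 and 2.17 labelled grazing, led by bta-miR-150 or bta-miR-342, and 0 of 3 were called between the labels, with differences of 0.56 for bta-miR-150, 0.26 for bta-miR-342 and -0.12 for bta-miR-155. Of 7 muscle markers, bta-miR-133b was detected at 0 and 1 mo labelled housed, and the other 6 on no array. The study also counts bta-miR-486, here on the red cell list and detected on every array, as enriched in muscle. Liver bta-miR-122 was detected on all 4 arrays labelled housed and at 0 mo labelled grazing, with a scaled signal (a ratio, not log2) of at most 0.165. Fewer vesicles from a cell type and less let-7 RNA in each vesicle cannot be told apart in plasma.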

How the data were processed

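Per the file headers, the deposited scanner files hold background-subtracted spot intensity from Agilent Feature Extraction 10.7.3.1, summed over 2 probes with 20 spots each to a total signal with an error estimate and a detection call. The deposited series table, in which the authors divided each intensity by 1 factor per array, holds a ratio and served as an alternative; 730 of its 743 entries were matched by name. The 90th percentile over all 744 miRNAs served as the scale of an array, scaled values of undetected miRNAs and those below it were set to a floor of 0.114, and log2 was taken. limma 3.58.1 (R 4.3.3; lmFit, eBayes) was fitted to the 143 miRNAs detected on all 8 arrays, with Benjamini-Hochberg adjustment and a threshold of 0.05, after a test on simulated data. Probe sequences were compared without gaps with Python 3.11.15, numpy 2.4.6 and pandas 2.3.3. The number of arrays limits the precision, and control spots were left out. The members and lists were chosen with earlier results of these data known. Genes named are the 8 members, bta-miR-98, bta-let-7a-3p, 5 cluster partners, the 5 other miRNAs with the lowest SD of the log2 ratio to the family mean, and the blood cell, muscle and liver markers. Also named are miRNAs that the study reports as different between its feeding groups. Alternatives were other scalings, background corrections, filters, probes and months. The planned normexp correction added an offset of 50 to each spot; normexp without it, and the offset on mean spot signals without normexp, were added after the data were seen. Comparison of mature sequences was replaced by that of probe sequences.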

Additional observations from a re-analysis of the deposited data

How the results depend on the processing

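Median log2 differences of the members moved with scaling. The common change from 0 mo (0.23) was -0.12 without scaling, 0.52 with the 75th percentile, 0.34 with the 90th percentile over detected miRNAs, 0.11 with normexp and its offset of 50, and 0.13 with the offset alone, an alternative added later. The label difference (-0.29) was -1.28 without scaling, -0.44 with the 75th percentile, -0.10 with quantile normalization, -0.52 with normexp and its offset, -0.37 with normexp and no offset, also added later, and -0.51 with the offset alone. The label difference in change (-0.13) was 0.45 without scaling and -0.56 with the 90th percentile over detected miRNAs.

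Without scaling the common change turned to -0.10 (let-7a-5p), -0.13 (let-7b), -0.088 (let-7c), -0.17 (let-7e), -0.085 (let-7f), -0.22 (let-7g) and -0.13 (let-7i), with normexp and its offset to -0.029 (let-7g) and with the offset alone to -0.0021 (let-7g). The label difference in change turned without scaling to 0.47 (let-7a-5p), 0.39 (let-7b), 0.28 (let-7c), 0.44 (let-7d), 0.37 (let-7e), 0.54 (let-7f), 0.47 (let-7g) and 0.46 (let-7i). With normexp and its offset it turned to 0.059 (let-7a-5p), 0.11 (let-7f), 0.12 (let-7g) and 0.0029 (let-7i), with normexp and no offset to 0.023 (let-7f) and 0.036 (let-7g), with the offset alone to 0.032 (let-7a-5p), 0.088 (let-7f) and 0.096 (let-7g), with mean spot signals to 0.0017 (let-7g), and over the fits without 1 month it ran from -0.11 to 0.085 for let-7f. None of these passed the limma test in either setting. The turns without scaling are 1 shift of all members, by -0.34 and by 0.58, which is set by the scale factors of the arrays. The cause of the other turns was not tested.

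Members called for the label difference (3) numbered 8 without scaling, with normexp and its offset and with the offset alone, 6 with normexp and no offset, 0 without a filter on dim miRNAs, 0 to 3 without 1 month and 1 without the 0 mo arrays. Without a filter, 567 of 744 miRNAs were called for the label difference in change, against 2 of 143, since rows at the floor on every array have no spread; an alternative chosen after seeing the data, which kept the 198 miRNAs above the floor on at least 1 array, called 10, and called 2 members for the label difference. In all other alternatives 0 miRNAs were called for the label difference in change. Over all miRNAs the common change (10 called, 9 of them lower) gave 4 without scaling, 1, which was higher, with the 75th percentile and with the 90th percentile over detected miRNAs, 8 with quantile normalization (5 lower), 0 with the series table and without a filter, 2 with the added alternative, 20 without 4 mo and 0 without 1 or 2 mo. The label difference (38 called, 21 lower) gave 92 without scaling (91 lower), 24 with the 75th percentile (20 lower), 42 with normexp and its offset (29 lower), 45 with normexp and no offset (28 lower) and with the offset alone (31 lower), 1 without a filter, 7 with the added alternative, 16 without 0 mo and 0 without 1 or 4 mo.

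The share of let-7a-5p plus let-7f (52.4%) was 50.1% with normexp and its offset, 54.8% with the longest and 47.8% with the shortest probes. The median SD over let-7 pairs (0.20) was 0.16 with normexp and its offset and with the offset alone, and 0.18 with normexp and no offset. Of all values under alternatives, 430 kept direction and side of the threshold or moved within the error, 44 lost a call or fell in number, 26 gained, 35 moved by more than the error and 30 changed sign. Signal over background limits the dim miRNAs, and the pair ratios of let-7e and miR-98 moved both with normexp and with the offset.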
